A study of Mus musculus with 6 samples.

Results

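The 5 genes described here, Ramp1, Ramp2, Ramp3, Calcrl and Adm, were taken by name from a table of UMI counts that holds 16494 genes and 63647 cell barcodes. It came from droplet single-cell RNA-Seq of male FVB/N mice 9 to 10 weeks old, 3 wild-type (WT) and 3 Aromhum, whose lower abdominal muscle (LAM) was digested with collagenase. Aromhum mice carry the human gene for aromatase, CYP19A1, the enzyme that makes estrogen, under its own human promoters, and they develop scrotal hernias. The WT mice were littermates without the transgene. Each sample is the tissue of 1 mouse. The genes were chosen with results of the WT and Aromhum comparison known, so their levels and differences are given as a description. No p-value is given for them, and whether a fit over all genes called them is stated without reading anything from it.

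Receptor activity-modifying proteins (RAMPs) are small single-pass membrane proteins that escort the calcitonin receptor-like receptor, the product of Calcrl, to the cell surface and set which peptide it binds. With RAMP1 the receptor answers to calcitonin gene-related peptide (CGRP), a vasodilator peptide best known from sensory nerves, and with RAMP2 or RAMP3 it answers to adrenomedullin, the product of Adm. Adrenomedullin relaxes vessels and is required for the growth of blood and lymphatic vessels, and the receptor raises cyclic AMP through the Gs protein.

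On the mouse genome GRCm38 (mm10), Ramp1 lies on the plus strand of chromosome 1 (91179822 to 91225196), Ramp2 and Ramp3 on the plus strand of chromosome 11 (101246334 to 101248250 and 6658506 to 6677478), Calcrl on the minus strand of chromosome 2 (84330626 to 84425405) and Adm on the plus strand of chromosome 7 (110627657 to 110629820). GENCODE models overlap Ramp2 with Vps25 on the same strand, Ramp3 with Gm11978 on the other strand and Adm with Gm28863 on the other strand. How reads in these overlaps were assigned is not given in the sources used here. RefSeq promoter windows, from 250 bases before to 50 after the start, were found for 4 of the 5 genes. For Calcrl (window 84425217 to 84425516) and Ramp3 (6658283 to 6658582) the start used lay inside the gene as given above. Their windows thus reach further into the gene, and only 111 and 223 bases of them lie upstream of it. They were searched on both strands for the core letters of an estrogen response element, GGTCA, since the mice differ in estrogen production. Ramp1 and Adm each hold 1 match, and Ramp3 and Calcrl hold 0, where 40.5% of all 32851 promoter windows hold at least 1. The full palindromic element, GGTCA followed after 3 bases by TGACC, was in none of the 4 windows and in 0.0700% of all windows. The GC box GGGCGG had 3 matches in the Ramp3 window, 1 each in those of Calcrl and Adm and 0 in that of Ramp1, against a match in 35.7% of all windows. A match is a description of the letters, not of binding. The stretches upstream of the annotated gene start are printed for Ramp3, the gene with the widest difference between genotypes, for Calcrl, the receptor, and for Adm, the ligand, 5′ to 3′ on the strand of the gene, with capitals marking GGTCA read on either strand.
Ramp3, chr11:6658283-6658505, plus strand: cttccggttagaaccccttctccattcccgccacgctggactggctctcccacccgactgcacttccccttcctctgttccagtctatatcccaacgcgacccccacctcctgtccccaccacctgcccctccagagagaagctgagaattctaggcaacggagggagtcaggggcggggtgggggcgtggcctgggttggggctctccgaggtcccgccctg
Calcrl, chr2:84425406-84425516, minus strand: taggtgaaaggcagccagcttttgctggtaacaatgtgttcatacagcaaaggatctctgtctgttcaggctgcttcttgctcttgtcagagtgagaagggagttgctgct
Adm, chr7:110627407-110627656, plus strand: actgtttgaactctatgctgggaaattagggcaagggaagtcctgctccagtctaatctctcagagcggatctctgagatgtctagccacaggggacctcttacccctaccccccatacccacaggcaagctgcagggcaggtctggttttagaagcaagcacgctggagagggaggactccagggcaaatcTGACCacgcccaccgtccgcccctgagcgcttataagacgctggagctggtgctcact

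In units of 1000000 UMIs, the table held 65.0 to 72.9 per WT mouse and 92.7 to 112 per Aromhum mouse, with median UMIs per barcode of 4728.5 to 5897 and 6673 to 8727. Human CYP19A1 had 0 UMIs in each WT mouse and 770, 797 and 787 in the Aromhum mice. Between 120 and 189 barcodes per mouse carried a barcode sequence that was also present in another mouse. Cells were clustered without the 5 genes and named from marker genes, which gave 19 named cell types within or beside 3 broad classes (fibroblast-like, endothelial and mural). Aromhum replicate 3 stood apart from the other Aromhum mice in having 82 macrophages against 886 and 1610, and 14 Mmp3-high fibroblasts against 675 and 1285. Levels are UMIs per 1000000 UMIs of a cell type in a mouse (CPM); normalised CPM are these after edgeR's scaling of library sizes (TMM). Every cell type with at least 10 cells in a mouse was used. Within a cell type, fewer expressing cells and less RNA per cell cannot be told apart in these sums. Neighbours in an order of levels are said to lie within their spread where their means differ by no more than the larger of their SDs. Myonuclei are the clusters led by myofibre genes, although multinucleated cells were filtered out of the suspension.

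Calcrl, the receptor itself, was highest in venular endothelial cells, through which leukocytes leave the blood, at 190 ± 27.2 CPM (SD, n = 6 mice). Lymphatic endothelial cells followed at 115 ± 12.2 CPM and capillary cells at 63.9 ± 8.02 CPM. No mouse of a lower step reached a mouse of the step above it, so this order held in all 6 mice. Within the venular class, the subclusters led by Rasa4 and Lhx6 (215 cells) and by Olr1 and Cpe (449 cells) had 299 ± 81.9 and 294 ± 38.1 CPM, whereas the one led by Glycam1 had 144 ± 24.2 CPM (n = 4 mice with 10 cells). The largest venular subcluster, led by Sele and Ackr1, held 1659 of the 3165 venular cells, and its level is not given here. Outside the endothelium, Dmkn-high fibroblasts, named from the gene Dmkn, held 54.4 ± 10.9 CPM. Pericytes (38.8 ± 21.9 CPM), fibro/adipogenic progenitor-like (FAP-like) fibroblasts (25.2 ± 4.79 CPM), contractile smooth muscle (23.8 ± 9.41 CPM) and arterial cells (21.7 ± 7.35 CPM) came next, and these neighbours lay within their spread. The remaining 11 types had 16.4 CPM or less, down to 2.88 ± 0.719 CPM in mesothelial cells and 1.88 ± 1.14 CPM in tenocytes.

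Ramp1, the partner that gives the CGRP receptor, was found in muscle, smooth muscle, fibroblasts and T cells and almost not in endothelium. T cells had 301 ± 124 CPM, myonuclei 295 ± 88.3 CPM and contractile smooth muscle 276 ± 49.5 CPM. Esr1-high fibroblasts, the fibroblasts richest in the estrogen receptor gene Esr1, had 266 ± 105 CPM and tenocyte progenitor-like cells 215 ± 66.6 CPM. These 5 lay within the spread of their neighbours, and in WT mice alone myonuclei (352 ± 53.9 CPM) and Esr1-high fibroblasts (325 ± 45.2 CPM) had higher means than T cells (265 ± 176 CPM). FAP-like fibroblasts followed at 144 ± 41.3 CPM, dendritic-like cells at 94.6 ± 18.1 CPM and Dmkn-high fibroblasts at 58.5 ± 31.7 CPM. Capillary (1.78 ± 0.889 CPM), arterial (1.47 ± 1.05 CPM) and venular cells (1.22 ± 0.542 CPM) were the 3 lowest. Lymphatic endothelial cells had 10.1 ± 6.73 CPM, and muscle stem cells and myoblasts had 2.05 ± 0.838 CPM. Myonuclei and muscle stem cells thus lay at opposite ends of the order for the same gene.

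Ramp2, a partner for adrenomedullin, marked the endothelium. Capillary cells had 639 ± 66.6 CPM, venular cells 622 ± 86.2 CPM, arterial cells 560 ± 97.1 CPM and lymphatic cells 436 ± 42.0 CPM. Capillary, venular and arterial cells did not differ beyond their spread, and the lowest lymphatic mouse (394 CPM) lay above the highest mouse of Dmkn-high fibroblasts (310 CPM), the next type, at 253 ± 46.3 CPM. FAP-like fibroblasts had 188 ± 30.5 CPM, Mmp3-high fibroblasts 131 ± 47.9 CPM (n = 4 mice) and tenocyte progenitor-like cells 108 ± 47.6 CPM. Muscle stem cells and myoblasts held 76.8 ± 12.7 CPM. The lowest level was in contractile smooth muscle, at 3.35 ± 2.01 CPM. Within the capillary class, the Aplnr-led subcluster had 1158 ± 132 CPM and the Pgf-led one 440 ± 79.2 CPM, with every mouse of the former above every mouse of the latter. The third capillary subcluster, led by the stress genes Hspa1a and Egr1, had 649 ± 74.0 CPM.

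Ramp3, the other partner for adrenomedullin, was led by T cells, which had 803 ± 241 CPM over the 6 mice, with 635 CPM in the lowest WT mouse and 502 CPM in the lowest Aromhum mouse, both above every mouse of dendritic-like cells (249 ± 109 CPM). Only 20 to 182 T cells per mouse stood behind these values. Esr1-high fibroblasts averaged 242 ± 277 CPM, with WT mice at 2.47 to 23.3 CPM and Aromhum mice at 271 to 581 CPM. Macrophages had 60.4 ± 65.2 CPM and capillary cells 24.0 ± 3.81 CPM. The other types lay at 20.1 CPM or less, with 2.46 ± 0.903 CPM in venular cells and 1.29 ± 1.62 CPM in Dmkn-high fibroblasts, both of which carried Calcrl and Ramp2.

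Over all 6 mice, the mean of Adm, the ligand, was highest in capillary cells (158 ± 36.0 CPM). The Pgf-led and stress-gene capillary subclusters had 182 ± 53.0 and 179 ± 37.7 CPM. Mmp3-high fibroblasts came next at 95.5 ± 67.4 CPM, a mean over 1 WT and 3 Aromhum mice where other types had 3 of each, then lymphatic endothelial cells at 64.5 ± 15.6 CPM, Esr1-high fibroblasts at 55.3 ± 54.2 CPM, tenocytes at 51.8 ± 17.5 CPM and mesothelial cells at 49.97 ± 44.2 CPM. All 18 neighbouring pairs in the Adm order lay within their spread. The order pools the genotypes. In normalised CPM, scaled within each cell type, capillary cells had 191 ± 19.5 in WT and 127 ± 13.4 in Aromhum mice, and mesothelial cells 23.2 ± 11.1 and 79.0 ± 54.9. In Aromhum replicate 2, capillary cells (111) lay below Esr1-high fibroblasts (154) and mesothelial cells (127), whereas in Aromhum replicates 1 and 3 they lay above both. Venular cells, the richest in Calcrl, had 15.8 ± 2.94 CPM of Adm, and the lowest level was in dendritic-like cells at 6.31 ± 2.70 CPM.

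**Figure D1:**
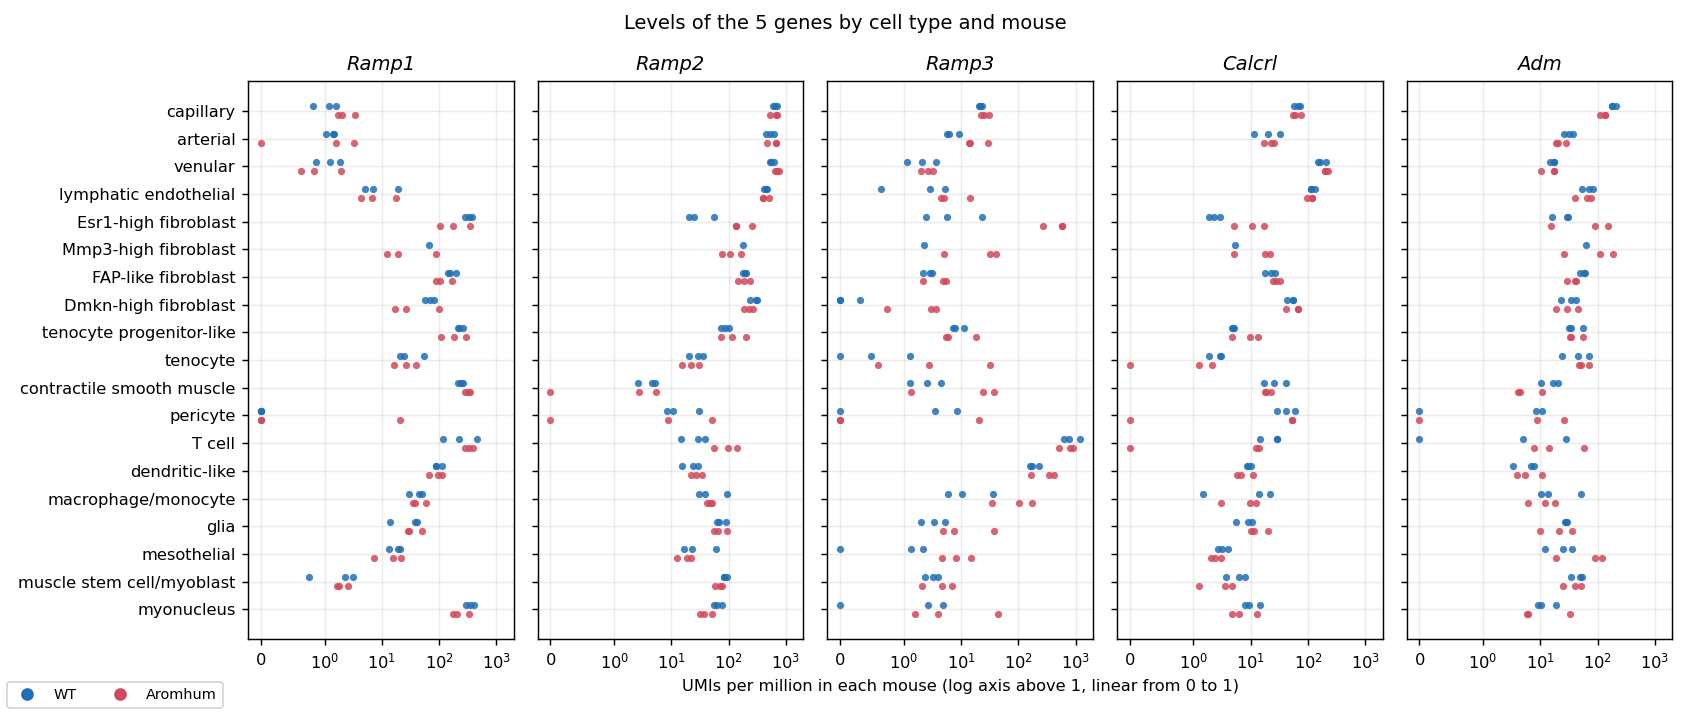
Level of each gene in 19 cell types, in CPM on an axis that is logarithmic above 1 and linear from 0 to 1, with 1 point per mouse (blue, WT; red, Aromhum) where the mouse had at least 10 cells of the type. Ramp2 points sit furthest right in the endothelial rows and Calcrl points in the venular and lymphatic endothelial rows. Ramp1 is lowest in mean in the capillary, arterial and venular rows, and the Ramp3 points of the Esr1-high row split by genotype (2.47 to 23.3 in WT and 271 to 581 in Aromhum).

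The genes whose mean level varied most like each member over the 19 cell types were found by Pearson's r of log2(CPM + 1) among 13303 other genes with at least 5 CPM in some type. For Ramp2 these were Tspan18 (r = 0.90), Slc43a3 (0.88) and Fgd5 (0.88), and for Calcrl they were Triobp (0.86), Cyp4b1 (0.85) and Akap12 (0.81). Ramp3 was nearest to Rhof (0.87), Ly6d (0.84) and Cd200r1 (0.80), Ramp1 to Pi15 (0.82), Nudt18 (0.79) and Crispld2 (0.78), and Adm to Sgk1 (0.84), Npr2 (0.81) and Csgalnact1 (0.81). No member was among the 3 genes most like another member. The cell types share the same 6 libraries and differ in depth, and r is given as a description only.

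The cells that supplied each gene's UMIs were compared between the genotypes. In WT mice, 22.4 ± 8.12% of Ramp3 UMIs came from dendritic-like cells, 15.3 ± 8.53% from T cells, 29.1 ± 13.6% from endothelial cells and 3.17 ± 3.97% from Esr1-high fibroblasts (SD, n = 3). In Aromhum mice, Esr1-high fibroblasts supplied 80.4%, 82.2% and 79.0% of Ramp3 UMIs, while they held 12.04%, 13.2% and 7.54% of the cells and 24.9%, 25.6% and 15.99% of all UMIs. For WT mice the same class held 3.00%, 1.58% and 1.57% of the cells. Adm UMIs came from endothelial cells for 44.0 ± 7.74% in WT and 12.8 ± 12.9% in Aromhum mice, where endothelial cells were 32.7 ± 4.85% and 18.2 ± 5.49% of the cells. Fibroblast-like cells supplied 23.4 ± 11.9% of Adm UMIs in WT and 62.3 ± 16.9% in Aromhum mice, and 35.6 ± 11.2% and 58.2 ± 4.94% of the UMIs of all genes. Endothelial cells supplied 24.8 ± 6.44% and 10.2 ± 4.42% of the UMIs of all genes. Mesothelial cells supplied 0.799 ± 0.569% of Adm UMIs in WT and 11.0 ± 3.87% in Aromhum mice, and 2.27 ± 0.844% and 10.3 ± 2.28% of the UMIs of all genes. Clusters set aside as mixed held 23.5 ± 6.26% of Adm, 24.2 ± 3.80% of Calcrl and 18.5 ± 4.26% of all UMIs in WT mice, and 8.85 ± 6.28%, 11.5 ± 0.617% and 7.01 ± 1.29% in Aromhum mice. Aromhum replicate 3 was between the groups for Adm, with 27.5% of its Adm UMIs from endothelial cells and 42.9% from fibroblast-like cells. Calcrl UMIs came from endothelial cells for 48.9 ± 4.86% in WT and 37.6 ± 12.8% in Aromhum mice, and Ramp1 UMIs from fibroblast-like cells for 70.3 ± 5.22% and 75.8 ± 4.80%. The mice of the genotypes overlapped in both. Esr1-high fibroblasts supplied 13.3 ± 1.47% of Ramp1 UMIs in WT and 46.0 ± 5.37% in Aromhum mice. Their share of all UMIs was 3.52 ± 1.58% and 22.2 ± 5.35%. For Ramp2, endothelial cells supplied 52.0 ± 7.77% in WT and 32.2 ± 11.6% in Aromhum mice. Fibroblast-like cells supplied 19.6 ± 11.5% and 50.6 ± 12.8% of Ramp2 UMIs.

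**Figure D2:**
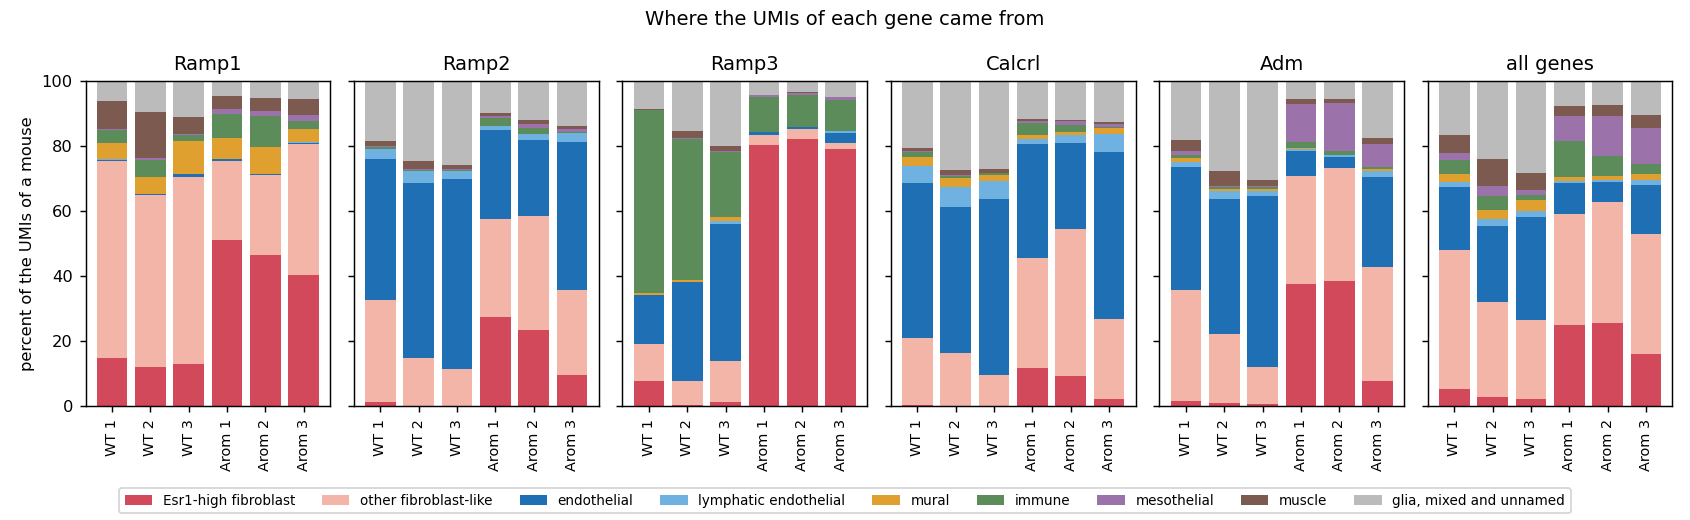
Share of the UMIs of each gene, and of all genes, that came from each group of cells, in percent of each mouse's UMIs (stacked bars, 1 per mouse). Esr1-high fibroblasts (dark red) make up 0.507 to 7.73% of the Ramp3 bars in WT mice and 79.0 to 82.2% in Aromhum mice, against 2.44 to 5.34% and 15.99 to 25.6% of the bars for all genes.

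Whether single Calcrl-positive cells also held a RAMP transcript was followed after each cell was thinned to 1000 UMIs, which levels the depth. In venular cells, 46.9 ± 3.85% of Calcrl-positive cells had a UMI of some Ramp gene, and nearly all of these were Ramp2: 46.7 ± 4.17% for Ramp2 against 44.1 ± 5.59% in all venular cells (n = 6 mice). Capillary cells gave 52.3 ± 5.38% for Ramp2 among Calcrl-positive cells and 45.1 ± 4.16% among all. The difference was less than the spread over mice in venular cells and more than it in capillary cells. Ramp3 was seen in 0.558 ± 0.931% of Calcrl-positive venular cells and Ramp1 UMIs were seen in 0.208 ± 0.0726% of all endothelial cells. In FAP-like fibroblasts, 16.6 ± 8.72% of Calcrl-positive cells had a Ramp2 UMI and 14.2 ± 8.39% a Ramp1 UMI. Among all FAP-like cells these shares were 17.1 ± 2.83% and 12.9 ± 2.42%, so the differences were less than the spread over mice. Without thinning, 94.3 ± 2.22% of Calcrl-positive venular cells had a Ramp UMI, and their median depth was 7420 UMIs. A Ramp2 UMI was then found in 94.2 ± 2.27% of them and in 92.6 ± 3.07% of all venular cells. After thinning, a Ramp2 UMI was found in 0.338 ± 0.385% of contractile smooth muscle cells, the lowest type (median depth 4581 UMIs before thinning), in 1.67 ± 0.958% of macrophages and 1.92 ± 0.537% of tenocytes, and in 45.1 ± 4.16% of capillary cells (median 3159). Calcrl was found in 17.7 ± 2.94% of venular cells against 0.125 ± 0.307% of tenocytes, again the lowest type, and 1.12 ± 1.196% of macrophages.

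The genotypes were compared within each cell type that had at least 20 cells in every mouse, 21 in all with the broad classes, by edgeR on counts summed per mouse. A gene was called at a Benjamini-Hochberg adjusted p under 0.05. Of 105 pairs of a member and a cell type, 81 passed the filter on low counts, which a gene can pass through the group where it is high, and 8 pairs were called. In Esr1-high fibroblasts 3 of 5 members were called, all higher in Aromhum mice, where 14.7% of all 11870 genes tested were called and 6.96% were called higher. The corresponding share of all genes was 12.6% in fibroblast-like cells (1 of 5 members called), 13.1% in endothelial cells (2 of 5), 1.87% in capillary cells (1 of 4) and 1.87% in mural cells (1 of 4). No member was called in the other 16 cell types, where 0.988% of all genes tested were. Since the members were chosen from this comparison, nothing is read from these counts.

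Ramp3 differed most. In Esr1-high fibroblasts the normalised CPM was 23.4, 2.42 and 5.74 in WT replicates 1 to 3 and 592, 590 and 262 in Aromhum replicates 1 to 3. The lowest Aromhum mouse was thus more than 10 times above the highest WT mouse, and the log2 difference was 5.35 (SE 0.67), with 6.95 without WT replicate 1 and 4.91 without WT replicate 2 as the ends of its range when a mouse was left out. In the whole fibroblast-like class the values were 6.71, 3.25 and 5.70 in WT and 256, 248 and 79.9 in Aromhum mice, a log2 difference of 5.22 (SE 0.54), and 38.6% of all genes tested did not overlap there. Ramp2 in Esr1-high fibroblasts was 55.6, 19.9 and 24.9 in WT and 268, 136 and 128 in Aromhum mice, without overlap and with a log2 difference of 2.36 (SE 0.43), from 1.91 without Aromhum replicate 1 to 3.01 without WT replicate 1. Calcrl there was 2.28, 2.91 and 1.91 in WT and 17.4, 10.9 and 5.01 in Aromhum mice (log2 difference 2.23, SE 0.57), without overlap. Before normalisation the highest of these mice had 16.8 CPM of Calcrl, and the lowest mouse of FAP-like fibroblasts 17.8 CPM. The mice did not overlap in Esr1-high fibroblasts for 37.6% of all genes tested, in either direction. Ramp1, the CGRP receptor partner, overlapped: 280, 320 and 373 in WT and 179, 105 and 330 in Aromhum mice. Adm also overlapped, at 16.2, 30.0 and 30.0 in WT and 91.6, 154 and 14.8 in Aromhum mice, where Aromhum replicate 3 lay below every WT mouse.

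**Figure D3:**
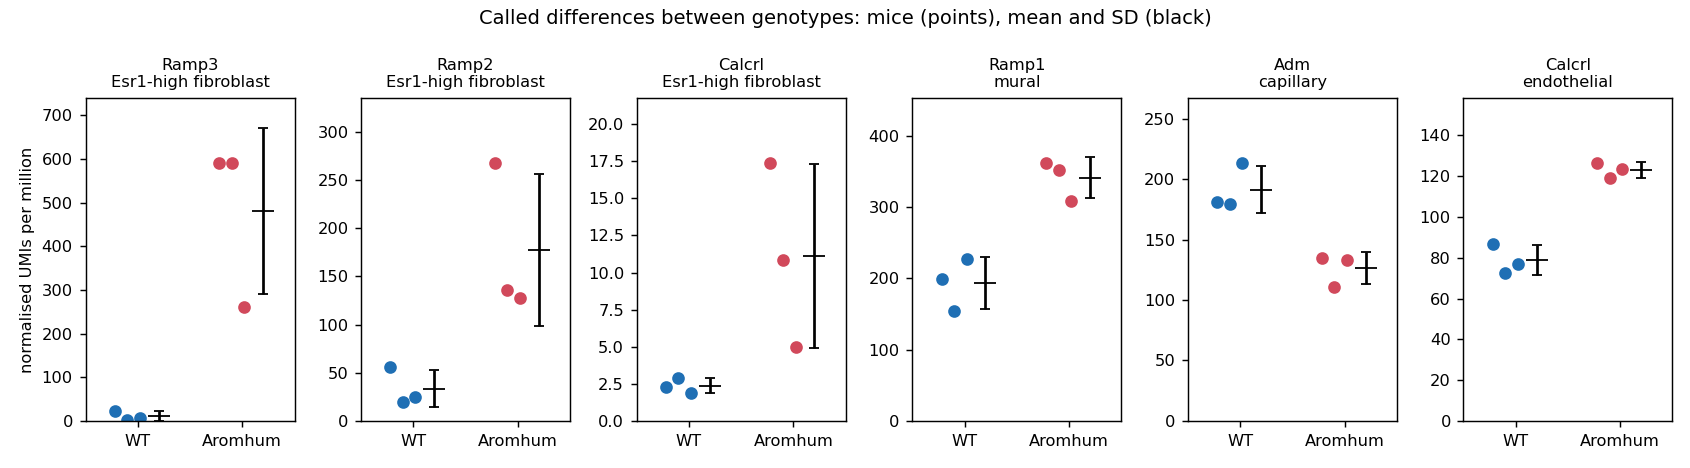
Normalised CPM of 6 of the 8 called pairs of gene and cell type, each panel with its own axis from 0 (points, mice; blue, WT; red, Aromhum; black, mean ± SD, n = 3). The mice of the genotypes do not overlap in any panel, and Aromhum replicate 3 is the lowest Aromhum point for Ramp3, Ramp2 and Calcrl in Esr1-high fibroblasts (262, 128 and 5.01).

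Different clusters made up the Esr1-high class in each genotype. The subcluster led by Igfbp2, Nnat and Scg5 (subcluster 10) held 93.7 ± 3.37% of Esr1-high cells in WT and 8.33 ± 9.81% in Aromhum mice. Most Aromhum cells were in subcluster 1 (Uts2, Ramp3, Nrg1 and Arl4c), with 1013, 1113 and 269 Aromhum and 24, 8 and 5 WT cells, and subcluster 6 (Nppc, Pnoc and Aqp5), with 401, 649 and 275 Aromhum and 7, 0 and 0 WT cells. Ramp3 was thus among the leading genes of subcluster 1, although it was left out of the clustering. The genotypes could be set side by side only in subcluster 10, with 274, 163 and 119 WT and 32, 57 and 133 Aromhum cells. Ramp3 was 22.3, 2.74 and 4.14 CPM there in WT and 147, 181 and 162 CPM in Aromhum mice, from 79 and 416 UMIs. All 3 Aromhum mice lay above the WT mice and close to each other, and below the Aromhum mice of subcluster 1 (549, 562 and 205 CPM) and of subcluster 6 (633, 636 and 379 CPM). Calcrl in subcluster 10 was 2.30, 3.29 and 1.38 CPM in WT and 8.64, 9.66 and 7.37 CPM in Aromhum mice, from 15 and 20 UMIs. Ramp2 overlapped there, at 48.9, 20.8 and 22.1 CPM against 168, 48.3 and 90.5 CPM. Ramp1 was 271, 326 and 368 CPM in WT and 333, 283 and 393 CPM in Aromhum mice, and the ranges nearly coincided. The 8 endothelial marker genes summed to 37.5 to 56.2 CPM in WT and 16.3 to 31.5 CPM in Aromhum Esr1-high cells, with none of the 8 at 0, and their part in the Ramp2 and Calcrl values was not tested. The 7 T cell markers, from the cells richest in Ramp3, summed to 8.24 to 12.6 and 4.26 to 6.89 CPM, with Trac at 0. The 8 macrophage markers summed to 7.58 to 17.3 CPM in WT and 20.1 to 24.8 CPM in Aromhum Esr1-high cells, with none at 0, and their part in the Ramp3 values was not tested.

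**Figure D4:**
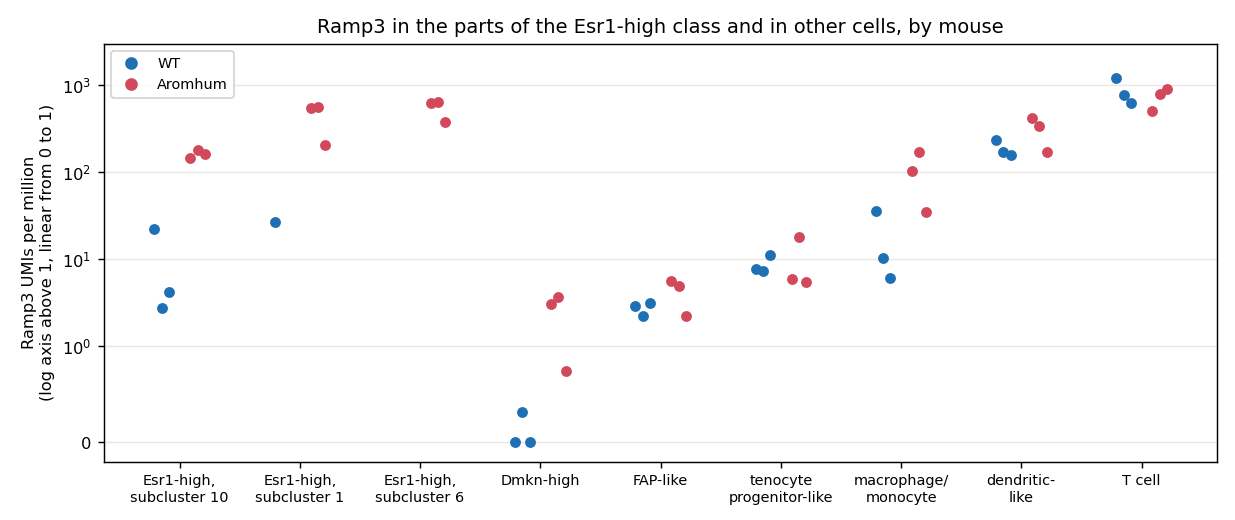
Ramp3 in CPM (axis logarithmic above 1, linear from 0 to 1) by mouse in the 3 parts of the Esr1-high class and in other cells; mice with under 10 cells have no point (blue, WT; red, Aromhum). In subcluster 10 the Aromhum mice sit at 147 to 181 and the WT mice at 2.74 to 22.3, whereas in T cells the WT mice (635 to 1202) and the Aromhum mice (502 to 912) overlap.

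Outside fibroblasts, Ramp3 was called in no cell type. Mesothelial cells had 0, 1.32 and 2.04 normalised CPM in WT and 15.4, 8.46 and 4.73 in Aromhum mice, and arterial cells 5.96, 8.89 and 6.36 against 28.9, 13.5 and 14.8, both without overlap, as for 25.4% and 17.5% of all genes tested in these cells. Without thinning, the share of arterial cells with a Ramp3 UMI overlapped, at 2.89, 5.44 and 5.13% in WT and 6.58, 2.17 and 6.36% in Aromhum mice. That of mesothelial cells did not, at 0, 1.73 and 1.47% against 4.08, 3.07 and 1.92%. The 9 Esr1-high fibroblast markers moved with these CPM values: they summed to 51.4 to 79.0 CPM in WT and 230 to 939 CPM in Aromhum mesothelial cells, and to 7.22 to 19.1 and 49.5 to 67.4 CPM in arterial cells, with none of the 9 at 0 in either type. In macrophages, whose Ramp3 overlapped between genotypes by a small margin (36.0 CPM in WT replicate 1 against 34.7 in Aromhum replicate 3), the same markers summed to 168 to 195 CPM in WT and 860 to 1744 CPM in Aromhum mice. Their part in these Ramp3 values was not tested.

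In the endothelium, Calcrl and Adm were called in opposite directions for the class as a whole. Calcrl was 86.8, 72.7 and 77.1 normalised CPM in WT and 127, 119 and 123 in Aromhum mice (log2 difference 0.64, SE 0.11). Adm was 110, 125 and 139 in WT and 45.7, 54.2 and 58.0 in Aromhum mice (log2 difference -1.24, SE 0.13). Mice did not overlap for 36.2% of all genes tested in the class. The make-up of the class differed too. Venular cells, high in Calcrl and low in Adm, were 11.98 ± 3.24% of endothelial cells in WT and 33.8 ± 6.51% in Aromhum mice, and capillary cells, high in Adm, were 70.2 ± 5.31% and 44.6 ± 8.25%. In capillary and venular cells taken alone Calcrl overlapped between genotypes, with log2 differences of -0.08 (SE 0.14) in capillary and 0.11 (SE 0.15) in venular cells. The venular class itself was made up differently, since its Glycam1-led subcluster, the lowest in Calcrl of those whose levels are given above, had 13, 2 and 4 WT and 427, 308 and 88 Aromhum cells. The part of these shares in the Calcrl and Adm values of the class was not tested. Adm in capillary cells was 181, 179 and 214 in WT and 135, 111 and 134 in Aromhum mice (log2 difference -0.60, SE 0.13), without overlap as for 19.4% of all genes there. In venular cells Adm was 18.4, 18.6 and 15.3 against 16.4, 16.4 and 10.2, and the mice overlapped. Ramp2 overlapped between WT and Aromhum mice in capillary (652 ± 58.2 and 629 ± 87.3 normalised CPM) and venular cells (580 ± 42.7 and 665 ± 53.9), with log2 differences of -0.05 (SE 0.14) and 0.20 (SE 0.12).

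Mural cells, the smooth muscle and pericytes around vessels, had more Ramp1 in Aromhum mice: 363, 352 and 308 normalised CPM against 199, 155 and 227 in WT (log2 difference 0.82, SE 0.17). In contractile smooth muscle, the named mural type richest in Ramp1, the values overlapped, at 254, 220 and 274 in WT and 349, 273 and 329 in Aromhum mice (log2 difference 0.35, SE 0.16), and Ramp1 was not called. Pericytes, with Ramp1 at 0 in 5 of 6 mice, were 83, 184 and 75 of the 586, 693 and 569 WT mural cells and 39, 42 and 70 of the 469, 473 and 452 Aromhum cells. These pericytes had a median of only 1250 UMIs, so a Ramp1 of 0 in a single pericyte says little about its absence there. With cells thinned to equal depth, Ramp1 was found in 0% of 325 pericytes and 18.7 ± 2.96% of contractile smooth muscle cells (SD, n = 6 mice). Calcrl was found in 6.15 ± 4.01% of the same pericytes. At equal depth Ramp1 was thus lower in pericytes than in contractile smooth muscle, although a low level in pericytes is not excluded. A cluster of 2799 barcodes led by the pericyte markers Rgs5, Abcc9 and Cox4i2 (median 12155 UMIs) was set aside as mixed. Its cells are in neither the mural nor the pericyte counts. The other 1890 of the 3242 mural cells were in subclusters without a name, where Ramp1 was 169, 141 and 195 CPM in WT and 385, 427 and 332 CPM in Aromhum mice, without overlap. The part of this make-up in the class value was not tested. The 8 fibroblast-like markers also summed higher in Aromhum mural cells, to 1910 to 3032 CPM against 1017 to 1087 CPM, with none at 0, and their part in the Ramp1 value was not tested. Fibroblast-like cells themselves had 165 ± 16.7 normalised CPM of Ramp1 in WT and 124 ± 67.1 in Aromhum mice, where Aromhum replicate 3 (197) lay above every WT mouse and replicates 1 and 2 (110 and 65.3) below. Adm in mural cells was 23.7, 18.3 and 17.1 in WT and 14.6, 8.15 and 13.1 in Aromhum mice, and in FAP-like fibroblasts 62.1, 56.3 and 47.5 against 42.3, 43.1 and 29.0. Neither of these Adm pairs was called, though the mice did not overlap. In mural cells 23.6% of all genes, and in FAP-like fibroblasts 26.3%, did not overlap. Ramp2 did not overlap, uncalled, in T cells (higher in Aromhum mice), muscle stem cells and myonuclei (both lower), where 19.6%, 26.5% and 13.7% of all genes did not. In muscle stem cells the log2 difference of -0.42 turned to 0.43 and 0.38 within the study's limits (names kept and clustered anew) and to 0.39 without marked doublets.

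The calls of members changed when 1 mouse was left out in 4 of the 5 groups of cells that had any. Such fits hold fewer mice, so a lost call does not by itself point to the mouse left out. Without WT replicate 2 or 3 or Aromhum replicate 1 or 2, no member was called in fibroblast-like cells, while the Ramp3 log2 difference stayed between 4.97 and 5.602 over the 6 fits that left out a mouse. In Esr1-high fibroblasts 1 to 5 members were called in those fits (5 without Aromhum replicate 3) and 2 without marked doublets, in mural cells 0 to 2, and in capillary cells 0 in each of the 6. In endothelial cells 2 were called in each of the 6. The share of all genes called in these and the other alternative fits is not given here, and nothing is read from the counts. Within the limits on genes and mitochondrial UMIs that the study applied, Ramp3 was still called in fibroblast-like cells, but the log2 difference fell to 2.51. Esr1-high cells could not be tested there, with 43, 4 and 8 cells left in the WT mice. They could not be tested at clustering resolutions 0.4 and 1.2 either, where most WT cells of the class did not keep the Esr1-high name.

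Of 50 other genes chosen from the pathway, 43 were in the table, and in Esr1-high fibroblasts 35 were tested, of which 1 rose and 6 fell in Aromhum mice (20.0%, against 14.7% of all genes). These genes too were chosen with earlier results of these data known, so their counts and p-values are not independent evidence. Their median log2 difference was -0.33, beside -0.00228 for all genes tested. Ackr3, a scavenging receptor that binds adrenomedullin, was 218, 380 and 259 normalised CPM in WT and 692, 649 and 473 in Aromhum mice (log2 difference 1.08, SE 0.24, edgeR adjusted p = 0.024). Vipr2, a receptor for vasoactive intestinal peptide, was 16.8, 20.8 and 12.8 in WT and 2.09, 1.28 and 1.63 in Aromhum mice (log2 difference -3.34, SE 0.28, adjusted p = 0.0021). Of 19 genes tested for the G protein, adenylyl cyclases and cyclic AMP effectors, 2 fell, both phosphodiesterases that degrade cyclic AMP: Pde4d (log2 difference -1.40, SE 0.18, adjusted p = 0.0050) and Pde3a (-0.81, SE 0.17, adjusted p = 0.021). The phosphodiesterase genes Pde4b and Pde3b were not called, with log2 differences of -0.58 and -0.24. Of 5 genes tested for receptor trafficking 2 fell, Slc9a3r1, which encodes the scaffold NHERF1 (log2 difference -1.15, SE 0.19, adjusted p = 0.011), and the receptor kinase gene Grk5 (-1.09, SE 0.30, adjusted p = 0.045), and the other 3 were not called. Pam, the enzyme that amidates adrenomedullin and CGRP to their active forms, was 505, 1057 and 945 in WT and 263, 304 and 516 in Aromhum mice, with overlap (log2 difference -1.21, SE 0.33, adjusted p = 0.047). These calls compare a class that different subclusters made up in each genotype, as described for Ramp3.

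In fibroblast-like cells as a whole 38 of these genes were tested, and 4 rose and 1 fell (13.2%, against 12.6% of all genes). Calcb, which encodes the beta form of CGRP, was at 0.0661, 0.0416 and 0 normalised CPM in WT and 0.856, 0.274 and 0.912 in Aromhum mice. No fold is given, since the WT values rest on a few UMIs or 0 and the gene passed the filter on low counts through the Aromhum mice. Its highest levels were in mesothelial (12.4 ± 7.58 CPM) and dendritic-like cells (10.3 ± 9.88 CPM), and mesothelial cells were 1.31 ± 0.394% of the cells in WT and 6.79 ± 1.11% in Aromhum mice. The 8 mesothelial markers summed to 52.5 to 86.8 CPM in WT and 39.5 to 62.9 CPM in Aromhum fibroblast-like cells, with none at 0. The part of RNA from mesothelial or dendritic-like cells in the Calcb values was not tested. Adcy5, an adenylyl cyclase, rose by 0.89 on the log2 scale (SE 0.17, adjusted p = 0.029), Prkar1a, a regulatory subunit of the cyclic AMP-dependent kinase, by 0.43 (SE 0.11, adjusted p = 0.0499) and Nsf, a fusion factor that acts in the recycling of RAMP3 receptors, by 0.35 (SE 0.09, adjusted p = 0.046). The class was made up differently in each genotype: Esr1-high cells were 7.43 ± 0.889% of it in WT and 25.02 ± 5.41% in Aromhum mice, and tenocyte progenitor-like cells, the type second highest in Vipr2 after tenocytes (20.1 ± 10.6 and 79.1 ± 26.6 CPM), were 996, 531 and 353 cells of 3612, 2522 and 1754 in WT and 353, 697 and 407 of 4922, 6807 and 3569 in Aromhum mice. The part of these shares in the class values was not tested. Vipr2 fell by 1.76 (SE 0.45, adjusted p = 0.047) in the class and by 0.62 in FAP-like fibroblasts (SE 0.15, adjusted p = 0.048), where it was the only gene of 33 that was called (3.98% of all genes were).

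In endothelial cells 33 genes of the pathway were tested, 2 rose and 0 fell (6.06%, against 13.1% of all genes). Arrb1, the gene for beta-arrestin 1, was 16.9, 11.4 and 16.2 normalised CPM in WT and 36.1, 38.5 and 33.4 in Aromhum mice (log2 difference 1.28, SE 0.16, adjusted p = 0.0056), and in capillary cells, a part of this class, it rose by 0.89 (SE 0.19, adjusted p = 0.030), as the only 1 of 27 called there (3.70%, against 1.87% of all genes). In capillary cells 0 were called by DESeq2, within the study's limits and in each fit that left out a mouse other than WT replicate 3. Pde4d rose by 1.05 in endothelial cells (SE 0.23, adjusted p = 0.020) and fell in Esr1-high fibroblasts, and the difference between these cells was not tested. In capillary, venular and arterial cells Pde4d was not called, nor was Arrb1 in venular (45.6 ± 14.8 CPM over all mice) or arterial cells, and the part of the larger venular share in the class values was not tested. In mural cells 27 were tested and 2 called (7.41%, against 1.87% of all genes). Prkar2b rose by 1.57 (SE 0.32, adjusted p = 0.040) and Prkaca, the catalytic subunit of the cyclic AMP-dependent kinase, fell by 1.07 (SE 0.24, adjusted p = 0.048). In contractile smooth muscle, which is part of the mural class and so no separate observation, Prkaca fell by 1.34 (SE 0.27, adjusted p = 0.025) and Crem, a cyclic AMP-responsive transcription factor, rose by 0.70 (SE 0.15, adjusted p = 0.046), among 22 tested (0.602% of all genes were called). Grk5 rose by 1.23 in tenocytes (SE 0.26, adjusted p = 0.047), where 1.29% of all genes were called. In the other 13 cell types edgeR called 0 genes of the pathway, with 0 to 10 a cell type at an unadjusted p under 0.05. Leaving out 1 mouse at a time gave 0 calls in fibroblast-like cells for 5 of the 6 mice and 10 without Aromhum replicate 3, and 2 to 9 calls in Esr1-high fibroblasts. In mural cells it gave 0 calls for 5 of the 6 mice and 7 without Aromhum replicate 3. The share of all genes called in these fits is not given here.

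**Figure D5:**
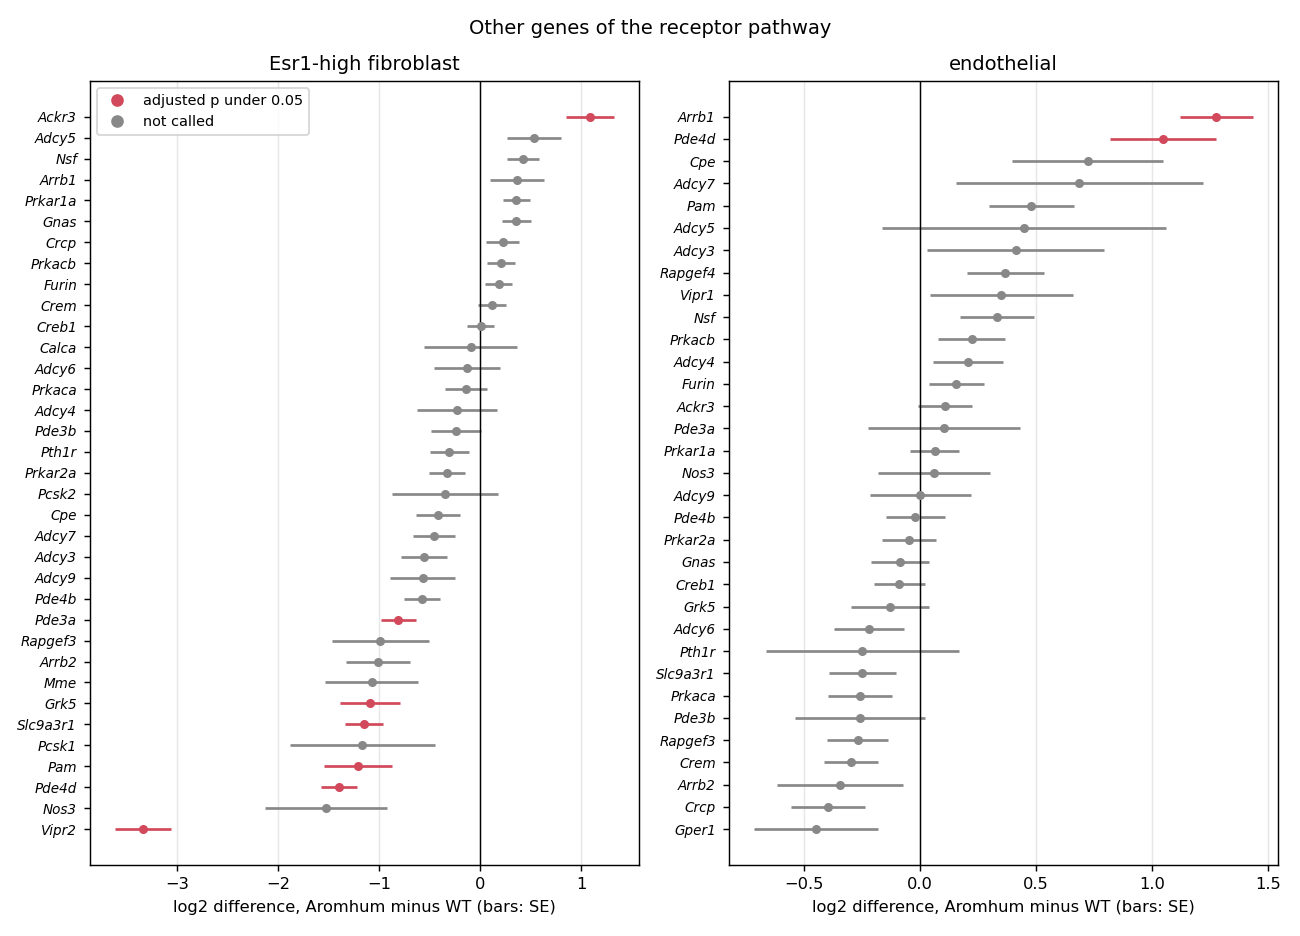
Log2 difference, Aromhum minus WT, of the other pathway genes tested in Esr1-high fibroblasts (35 genes) and endothelial cells (33 genes), with SE bars; red marks an adjusted p under 0.05. In Esr1-high fibroblasts 6 of the 7 red points lie left of 0, Vipr2 furthest at -3.34, and in endothelial cells both red points, Arrb1 and Pde4d, lie right of it.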

How the data were processed

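The authors deposited 1 table of raw UMI counts per gene and barcode, made with Cell Ranger 3.0.2 (submitters' processing notes) on mm10, with no normalization; it lists human CYP19A1 beside the mouse genes. Only 18852 of the 63647 barcodes met the study's limits (200 to 2500 genes, at least 1000 UMIs, at most 5% mitochondrial UMIs); all barcodes were used here, and the limits were an alternative. The upper gene limit alone would remove 25.5, 27.9 and 35.2% of WT and 40.2, 36.0 and 50.0% of Aromhum barcodes, and the mitochondrial limit 38.0, 68.2 and 40.1% of WT and 30.4, 30.9 and 27.6% of Aromhum barcodes, so barcodes over the mitochondrial limit were kept unequally. The 5 genes and all gene lists were chosen with earlier results of these data known.

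Counts were scaled to 10000 per barcode and log-transformed. After 2000 variable genes and 30 components, a graph of 20 neighbours was clustered with Leiden (resolution 0.8, scanpy 1.11.5), without the 5 genes, and fibroblast-like, endothelial and mural cells were clustered again. Clusters were named from at least 3 detected markers. Clusters with more markers of another class than of their own among the top 10 genes were called mixed (5391 barcodes), and 684 barcodes stayed unnamed. Scrublet marked 0 WT barcodes at its automatic threshold, so the highest scores, 0.8% per 1000 barcodes, were marked instead and removed only in an alternative.

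UMI counts were summed per mouse and cell type and tested with edgeR 4.0.16 (quasi-likelihood, TMM, filterByExpr) on R 4.3.3, adjusted over all genes tested. The test was checked on simulated data. A mouse is the replicate, 3 per genotype, and SE is of the log2 difference. Genes named were the 5 members, pathway genes called (up to 6 a cell type by adjusted p, with Pam added after its value was seen) and the 3 genes most like each member. DESeq2 1.42.0, other scalings, filters, resolutions and the replicate block were alternatives. The replicate numbers were checked for pairing of the mice (correlation of deviations from the genotype means) and not taken to pair them. Not every same-numbered pair correlated above 0.1 in fibroblast-like cells, although every pair did in endothelial cells, so the check cannot settle the pairing. WT and Aromhum littermates were processed together on separate dates, but no label ties a number to a date.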

Additional observations from a re-analysis of the deposited data

Results flagged for a closer look

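Ramp2 moved in opposite directions in different cell types, with every Aromhum mouse on the same side of every WT mouse. The log2 difference, Aromhum minus WT, was 2.36 in Esr1-high fibroblasts and 1.90 in T cells, and -0.42 in muscle stem cells and myoblasts and -0.79 in myonuclei. The difference between these cell types was not tested, and only the value in Esr1-high fibroblasts was called. Mice did not overlap for 37.6% of all genes in Esr1-high fibroblasts, 19.6% in T cells, 26.5% in muscle stem cells and 13.7% in myonuclei. In T cells Ramp2 was 16.2, 47.2 and 34.9 normalised CPM in WT and 164, 109 and 60.7 in Aromhum mice, and the 8 fibroblast-like markers summed to 209 to 5682 CPM in WT and 4788 to 24224 CPM in Aromhum mice there, with none at 0. In muscle stem cells Ramp2 was 84.6, 96.9 and 85.9 against 55.3, 70.7 and 73.7, and in myonuclei 57.3, 77.0 and 67.5 against 46.8, 34.5 and 35.1. The 8 endothelial markers summed to 736 to 905 CPM in WT and 152 to 472 CPM in Aromhum muscle stem cells, all 8 lower without overlap, and to 445 to 684 and 138 to 316 CPM in myonuclei, 6 of 8 lower without overlap. The part of these other cells' RNA in the Ramp2 values was not tested. In muscle stem cells the sign turned within the study's limits (0.43 with names kept, 0.38 clustered anew) and without marked doublets (0.39). In myonuclei the value was -0.38 and -0.46 within the limits and -1.55 without marked doublets.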

How the results depend on the processing

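Of 201 alternative values for the 15 member differences that were called or did not overlap, 198 kept their sign and 190 moved by less than the spread over mice. Deviations of same-numbered mice correlated at 0.353, -0.183 and 0.341 for numbers 1 to 3 in fibroblast-like cells. In endothelial cells the correlations were 0.389, 0.284 and 0.451, and each mouse correlated best with its own number. These values cannot settle whether the numbers pair the mice, since pairing would hold for all cells of a mouse. With the replicate block, the pathway calls were 5 in fibroblast-like, 7 in Esr1-high, 4 in endothelial (2 without it), 1 in capillary, 5 in mural (2) and 22 in the other 16 cell types (4), and the members called there were 4 (0). Without the filter on low counts, pathway calls were 2 in fibroblast-like and 4 in mural cells and 19 in the other types, and members called 2 in mural cells and 5 in the others. DESeq2 gave 8 pathway calls in fibroblast-like, 0 in capillary, 1 in mural and 14 in the other types, and 3 members in the others. Within the study's limits, names kept or clustered anew, pathway calls were 0 in fibroblast-like, capillary and the other types, and clustered anew 0 members were called in capillary cells. Resolution 1.2 gave 3 pathway calls and 0 members in capillary cells and 1 member in the other types, and resolution 0.4 gave 2 members in the others. Esr1-high and mural cells within the limits, and Esr1-high cells at resolutions 0.4 and 1.2, had too few WT cells to be tested. WT replicates 1 to 3 had 43, 10 and 6 Esr1-high cells at resolution 0.4 and 40, 8 and 6 at 1.2. In the main clustering they had 305, 171 and 124, so most of these WT cells did not keep the Esr1-high name. Aromhum mice kept 1419, 1744 and 568 at 0.4 and 1191, 1345 and 567 at 1.2. The Ramp3, Ramp2 and Calcrl differences of the class thus have no value at either resolution. Leaving out a mouse gave 0 to 10 pathway calls in fibroblast-like, 2 to 9 in Esr1-high, 1 to 3 in endothelial, 0 to 1 in capillary, 0 to 7 in mural and 0 to 29 in the other types. The members called were then 0 to 4, 1 to 5, 2 in each fit, 0 in each fit, 0 to 2 and 0 to 11 in the same order. The highest counts came without Aromhum replicate 3, except in capillary cells (without WT replicate 3) and, shared with WT replicate 3, pathway calls in endothelial cells. The share of all genes called in each alternative fit is not given here, so these counts have no background beside them. Clustered anew within the limits, the levels were 430 CPM for Ramp1 in T cells, 1069 CPM for Ramp2 and 121.5 CPM for Adm in capillary cells, and at resolution 0.4 Ramp2 in capillary cells was 561 CPM. Within the limits, names kept and clustered anew, fibroblast-like cells supplied 60.6 and 61.0% of Ramp1 UMIs, and endothelial cells 62.6 and 62.3% of Ramp2 and 64.6 and 64.4% of Calcrl UMIs. Without thinning, a UMI was found for Ramp1 in 48.8% and Ramp3 in 62.3% of T cells, Ramp2 in 73.5% and Adm in 28.4% of capillary cells, Calcrl in 68.75% of venular cells and some Ramp in 94.3% of their Calcrl-positive cells. Among all venular cells, 92.6% had a Ramp2 UMI without thinning. Thinning lowers detection by construction, and the cause of the other changes was not tested.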

Other observations

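Calca, which encodes the alpha form of CGRP and calcitonin, was highest in T cells, at 366 ± 162 CPM (SD, n = 6 mice), the cells that also had the highest mean Ramp3 level, and next in mesothelial cells, at 8.15 ± 9.63 CPM. Calcr, the calcitonin receptor, was highest in muscle stem cells and myoblasts (33.8 ± 6.60 CPM) and next in glia (0.852 ± 0.519 CPM). Adm2, which encodes intermedin, was near 0 everywhere, with 0.437 ± 0.874 CPM in Mmp3-high fibroblasts as its highest level. Ackr3 was highest in Dmkn-high fibroblasts (865 ± 97.5 CPM), the fibroblast type with the most Calcrl, and next in Mmp3-high fibroblasts (677 ± 112 CPM, n = 4). Nos3, endothelial nitric oxide synthase, was highest in arterial cells (148 ± 59.2 CPM) and next in capillary cells (82.3 ± 8.92 CPM).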
